A study of Homo sapiens with 12 samples.

Results

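miR-221 and miR-222 are microRNAs (miRNAs) cut from 1 precursor transcript on the X chromosome, and the 4 mature arms hsa-miR-221-3p, hsa-miR-221-5p, hsa-miR-222-3p and hsa-miR-222-5p were chosen by name out of the 1204 miRNAs in the table of counts. All 4 passed the filter on low counts, which kept 659 miRNAs. Small RNA libraries had been made from MV4-11 and Molm-14, human acute myeloid leukemia (AML) lines, each with an FLT3-ITD mutation. In each line, cells with MPC1 deleted (MPC1 KO) were set beside Empty Vector (EV) cells, to see how miRNAs respond when less pyruvate can enter mitochondria through the carrier that MPC1 helps to form. The 4 groups were MV4-11 EV, MV4-11 MPC1 KO, Molm-14 EV and Molm-14 MPC1 KO, with 3 libraries in each and 12 in all. The deletion was made with a lentiCRISPRv2 construct that carried GFP and 1 guide against MPC1, and the sources used here do not say if a KO line was 1 clone or if replicate libraries were grown separately. P-values therefore measure the spread between these libraries, which may be technical. In bulk RNA, fewer cells with a miRNA and less of it per cell cannot be told apart.

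A miRNA precursor folds into a hairpin, and each side of the hairpin can give a mature arm, named 5p or 3p. Usually 1 arm, the guide, is loaded into the silencing complex and kept, while the other, the passenger, is mostly lost. The 3p arms are the guides of miR-221 and miR-222. Bases 2 to 8 of a guide, its seed, pair with the target mRNA. In blood cells these miRNAs are known for repressing KIT, the receptor for stem cell factor, and in many tumors for repressing CDKN1B, which encodes the cell cycle inhibitor p27. Their transcription is known to be raised by NF-kB and AP-1.

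The mature sequences below, from RefSeq on GRCh38.p14 with the seed in capitals, show what the arms share. RefSeq entries were matched for 3 of the 4 arms.
hsa-miR-221-3p: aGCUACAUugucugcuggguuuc
hsa-miR-222-3p: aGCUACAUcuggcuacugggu
hsa-miR-222-5p: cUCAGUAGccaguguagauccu
The 3p arms have the first 8 bases in common, and 11 of the 21 positions that can be compared without gaps are identical. Past base 8 they diverge, so full-length reads of the 2 guides can be told apart. No other mature human miRNA in the RefSeq table held the seed GCUACAU, so the 2 guides form a seed family of their own. The seed of hsa-miR-222-5p, UCAGUAG, was held by no other entry. Each of the 3 sequences matched the genome exactly once, on the minus strand of chromosome X: hsa-miR-221-3p at chrX:45746180-45746202, hsa-miR-222-3p at chrX:45747036-45747056 and hsa-miR-222-5p at chrX:45747073-45747094.

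The hairpins, each of 110 bases, show where these arms lie in their precursors, with the mature arms listed above in capitals.
MIR221: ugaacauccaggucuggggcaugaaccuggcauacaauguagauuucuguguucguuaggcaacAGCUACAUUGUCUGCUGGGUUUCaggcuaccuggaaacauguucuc
MIR222: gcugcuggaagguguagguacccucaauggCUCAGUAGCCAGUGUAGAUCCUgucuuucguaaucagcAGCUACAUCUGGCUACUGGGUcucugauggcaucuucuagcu
MIR222 (chrX:45747015-45747124) lies upstream of MIR221 (chrX:45746157-45746266) in the direction of transcription, with 748 bases between them. In the GENCODE annotation of GRCh38 both hairpins lie in an intron of MIR222HG-201, a transcript of their non-coding host gene. MIR221 also overlaps an exon of the shorter transcript MIR222HG-203 by 24 bases. The nearest protein-coding gene, DIPK2B, lies 545256 bases away.

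Because the 4 arms share this host gene, its RefSeq promoter is shown, from 250 bases before to 50 after the start site (chrX:45770218-45770517, minus strand, GRCh38.p14), with the matches found in capitals.
MIR222HG promoter: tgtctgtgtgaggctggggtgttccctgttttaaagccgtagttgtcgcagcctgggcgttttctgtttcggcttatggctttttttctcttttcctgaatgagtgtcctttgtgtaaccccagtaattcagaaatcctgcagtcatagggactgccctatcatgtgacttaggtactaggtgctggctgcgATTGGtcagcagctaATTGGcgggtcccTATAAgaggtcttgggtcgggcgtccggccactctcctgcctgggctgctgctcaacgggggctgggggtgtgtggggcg
The letters TATAA were searched on the gene's strand and found at position -30 from the start site, and 14.8% of 35116 promoters of this length hold them. CCAAT, searched on both strands, was read on the opposite strand, as ATTGG, at 2 places upstream of TATAA, and 34.6% of promoters hold it. TGANTCA, the AP-1 letters (7.71% of promoters), CACGTG, an E-box (7.26%), and the NF-kB letters GGACTTTCC (0.370%) and GGAATTTCC (0.461%) were searched on both strands and were not in this window.

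Total counts per library ranged from 3870104 to 8683456. Blood-cell miRNAs were present in both lines: the lowest library of hsa-miR-223-3p stood at 2678 CPM (counts scaled to a common library total) in MV4-11 and 2694 in Molm-14, and that of hsa-miR-142-3p at 17279 and 40913. MPC1 mRNA is not measured by such libraries, so the deletion could not be checked here. Molm-14 EV 2 stood apart from its group: it had the lowest total count and differed from the other Molm-14 EV libraries by a chi-square per degree of freedom of 189 and 131, against 13.7 to 117 for the other pairs of replicates. Fold changes, ratios and list counts that rest on it are given below with their values without it.

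The guide arms were abundant and the 5p arms were not. Levels are in CPM scaled by the TMM factors of edgeR, and the 3 values of a group follow the replicate numbers. The arms are of nearly equal length, so no length scaling was used. Levels of different miRNAs also depend on how well each is ligated and amplified, which was not measured. hsa-miR-221-3p ranked 15 among the 659 miRNAs by its mean over the 12 libraries, between hsa-miR-423-3p and hsa-miR-26b-5p. hsa-miR-222-3p ranked 20, between hsa-miR-142-5p and hsa-miR-30e-5p. The 5p arms ranked 78 (hsa-miR-221-5p, between hsa-miR-107 and hsa-miR-629-5p) and 254 (hsa-miR-222-5p, between hsa-miR-744-3p and hsa-miR-629-3p). In MV4-11 the 4 arms together took 3.31% ± 0.369 (SD, n = 3) of all counts in EV cells and 3.67% ± 0.436 in KO cells. In Molm-14 they took 1.17% ± 0.169 in EV cells and 1.603% ± 0.1503 in KO cells. The libraries of Molm-14 took a smaller share of their counts from this locus than those of MV4-11.

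**Figure D1:**
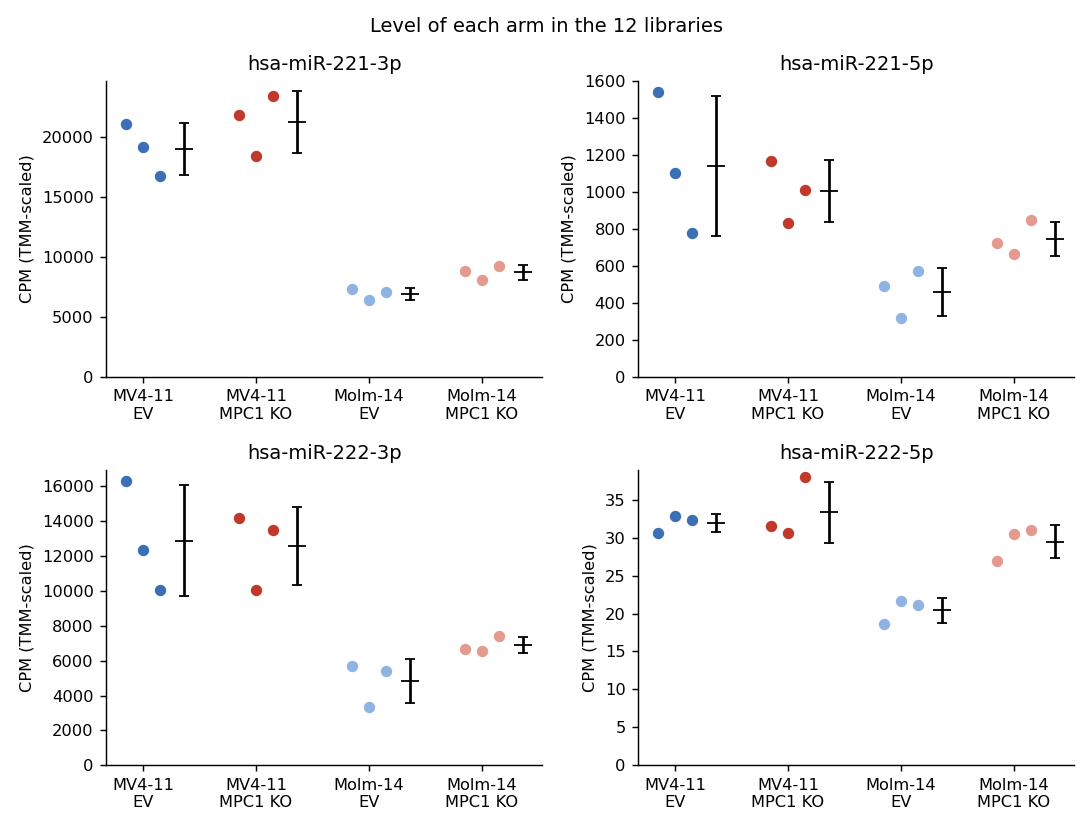
TMM-scaled CPM (y axis, linear, from 0) of each arm in the 12 libraries by group (x axis). Points are libraries, and the bar beside them is the mean with its SD (n = 3). In each panel the 3 Molm-14 MPC1 KO points sit above the 3 Molm-14 EV points, while the MV4-11 groups overlap.

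MV4-11 and Molm-14 EV cells were compared first, to give the level of the locus in each line. All 4 arms were lower in Molm-14, by 1.56-fold to 2.76-fold, and in each of them every Molm-14 EV library lay below every MV4-11 EV library. hsa-miR-221-3p, a guide, was at 21073, 19186 and 16762 CPM in MV4-11 EV and at 7275, 6370 and 7031 CPM in Molm-14 EV. Its log2 fold change was -1.46 (SE 0.11, edgeR adjusted p = 2.93e-11). hsa-miR-222-3p, the guide with the same seed, was at 16276, 12313 and 10026 CPM in MV4-11 EV and at 5671, 3368 and 5411 CPM in Molm-14 EV. The drop was of the same order, with a log2 fold change of -1.42 (SE 0.23, edgeR adjusted p = 0.000189).

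The 5p arms followed in the same direction. hsa-miR-221-5p was at 1541, 1104 and 780 CPM in MV4-11 EV and at 492, 318 and 573 CPM in Molm-14 EV, with a log2 fold change of -1.31 (SE 0.29, edgeR adjusted p = 0.00292). For hsa-miR-222-5p, the rarest arm, the MV4-11 EV libraries gave 30.6, 32.8 and 32.3 CPM and the Molm-14 EV libraries 18.6, 21.6 and 21.1 CPM. It changed least, with a log2 fold change of -0.64 (SE 0.15, edgeR adjusted p = 0.000749) and a 95% confidence interval of -0.96 to -0.33 that did not reach the interval of hsa-miR-221-3p, -1.69 to -1.23. The difference between these 2 arms was not tested. Without Molm-14 EV 2 the 4 log2 fold changes were -1.39, -1.20, -1.08 and -0.66 in the order given, with adjusted p of 8.04e-11, 0.000149, 0.00888 and 0.00157. Many miRNAs differed between the lines: 61.9% of all tested were past the threshold (adjusted p under 0.05), 28.4% as lower in Molm-14, and 29.3% had every Molm-14 EV library below every MV4-11 EV library, so 4 of 4 arms lower is read against shares of that size. The 4 arms come from 1 transcript, so they are not 4 separate observations.

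**Figure D2:**
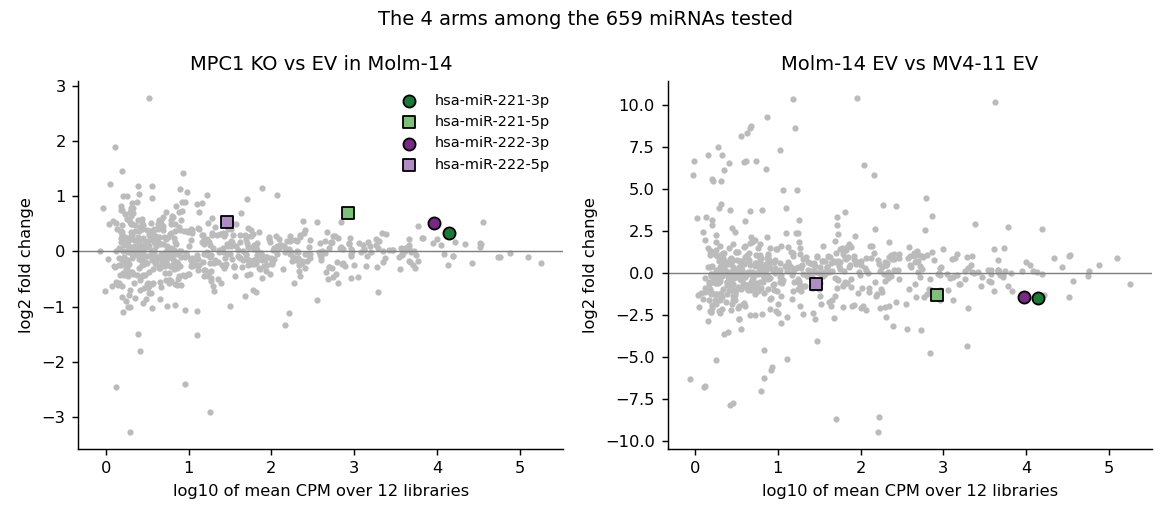
Log2 fold change (y axis) against the log10 of mean CPM over 12 libraries (x axis) for the 659 miRNAs tested (grey), with the 4 arms marked. Left, MPC1 KO against EV in Molm-14, where the arms lie between 0.34 and 0.69; right, Molm-14 EV against MV4-11 EV, where they lie between -1.46 and -0.64.

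In Molm-14 all 4 arms stood higher in MPC1 KO than in EV cells, and in each of them all 3 KO libraries lay above all 3 EV libraries. Only hsa-miR-222-5p passed the threshold in the edgeR fit, so 1 of 4 rose, where 2.73% of all tested miRNAs were called higher and 12.3% had every KO library above every EV library. Since the 4 arms share 1 transcript, counts of arms in this comparison are not counts of separate miRNAs. hsa-miR-221-3p reached 8793, 8060 and 9242 CPM in the KO libraries against the Molm-14 EV values above. Its group means were 6892 ± 468 and 8698 ± 597 CPM (SD, n = 3), and its log2 fold change was 0.34 (SE 0.11, 95% interval 0.11 to 0.56, edgeR adjusted p = 0.0682). hsa-miR-222-3p was at 6683, 6556 and 7403 CPM in the KO libraries, with a log2 fold change of 0.51 (SE 0.22, 95% interval 0.02 to 1.004, edgeR adjusted p = 0.232). The KO libraries of both guides were close to each other, and the EV libraries of hsa-miR-222-3p were spread by the low value of Molm-14 EV 2.

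Among the 5p arms, hsa-miR-221-5p was at 725, 665 and 849 CPM in Molm-14 MPC1 KO. It had the largest fold change of the 4 arms and the widest interval, at 0.69 on the log2 scale (SE 0.28, 95% interval 0.05 to 1.34, edgeR adjusted p = 0.212). hsa-miR-222-5p rose from 20.4 ± 1.64 to 29.5 ± 2.17 CPM (SD, n = 3), with KO libraries at 27.0, 30.5 and 31.0 CPM. That is 1.44-fold, a log2 fold change of 0.53 (SE 0.15, 95% interval 0.21 to 0.85, edgeR adjusted p = 0.0326). It rests on few reads, 81 to 94 counts per EV library and 132 to 166 per KO library.

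The calls in Molm-14 moved with the fit while the direction did not. hsa-miR-221-3p passed in 8 of 9 other fits, all but limma-voom (adjusted p 0.0127 to 0.0595), and DESeq2 also called hsa-miR-222-3p, giving 3 of 4 arms where DESeq2 called 2.8% of miRNAs higher. hsa-miR-222-5p passed in all 9 other fits (adjusted p 0.0119 to 0.0486). Of the 12 fits that left out 1 library, hsa-miR-222-5p lost its call without Molm-14 EV 1 (adjusted p = 0.117), Molm-14 EV 3 (0.0669), Molm-14 MPC1 KO 2 (0.118) or Molm-14 MPC1 KO 3 (0.104). Without Molm-14 EV 2, the library that stood apart, the log2 fold changes were 0.31 for hsa-miR-221-3p, 0.34 for hsa-miR-222-3p, 0.52 for hsa-miR-221-5p and 0.60 for hsa-miR-222-5p, with adjusted p of 0.112, 0.367, 0.368 and 0.0299. Leaving that library out took the log2 fold change of hsa-miR-222-3p from 0.51 to 0.34.

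In MV4-11 the 4 arms had no common direction after MPC1 deletion, and the KO and EV libraries of each overlapped. hsa-miR-221-3p was at 21823, 18412 and 23438 CPM in MV4-11 MPC1 KO, and its log2 fold change was 0.16 (SE 0.11, 95% interval -0.06 to 0.38, edgeR adjusted p = 0.581). hsa-miR-222-3p was at 14153, 10011 and 13472 CPM, with a log2 fold change of -0.04 (SE 0.22, 95% interval -0.53 to 0.45, edgeR adjusted p = 0.974). The interval of hsa-miR-221-3p holds its Molm-14 estimate and that of hsa-miR-222-3p ends just below it, so the MV4-11 libraries do not show that the guides stayed level.

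The MV4-11 5p arms also had overlapping KO and EV libraries, but both of their intervals ended below the Molm-14 estimates of 0.69 and 0.53. hsa-miR-221-5p was at 1168, 833 and 1013 CPM in the KO libraries, with a log2 fold change of -0.19 (SE 0.28, 95% interval -0.82 to 0.45, edgeR adjusted p = 0.851). hsa-miR-222-5p was at 31.5, 30.6 and 38.0 CPM, with a log2 fold change of 0.07 (SE 0.14, 95% interval -0.23 to 0.36, edgeR adjusted p = 0.907). None of the 4 arms passed the threshold in edgeR, and none had an unadjusted p under 0.05 or was called by DESeq2 or limma-voom. Over all miRNAs tested, 3.03% were called in MV4-11 and 17.5% had KO and EV libraries that did not overlap.

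Whether MPC1 deletion acted differently on the locus in the 2 lines was tested as the difference of the log2 fold changes, Molm-14 minus MV4-11. The difference was 0.18 for hsa-miR-221-3p (95% interval -0.14 to 0.49, edgeR adjusted p = 0.593) and 0.55 for hsa-miR-222-3p (-0.14 to 1.24, 0.381). For the 5p arms it was 0.88 for hsa-miR-221-5p (-0.02 to 1.78, 0.279) and 0.46 for hsa-miR-222-5p (0.03 to 0.90, 0.251). All 4 differences were above 0 and none passed the threshold in edgeR, DESeq2 or limma-voom, where edgeR called 6.68% of miRNAs. With 1 transcript behind the 4 arms, their common sign is not 4 separate results. 1 arm, hsa-miR-222-5p, had an unadjusted p under 0.05 (edgeR, 0.0384). Without Molm-14 EV 2 the differences were 0.08, 0.32, 0.64 and 0.46 in the order given. A call in Molm-14 without one in MV4-11 is not shown to be a difference between the lines.

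**Figure D3:**
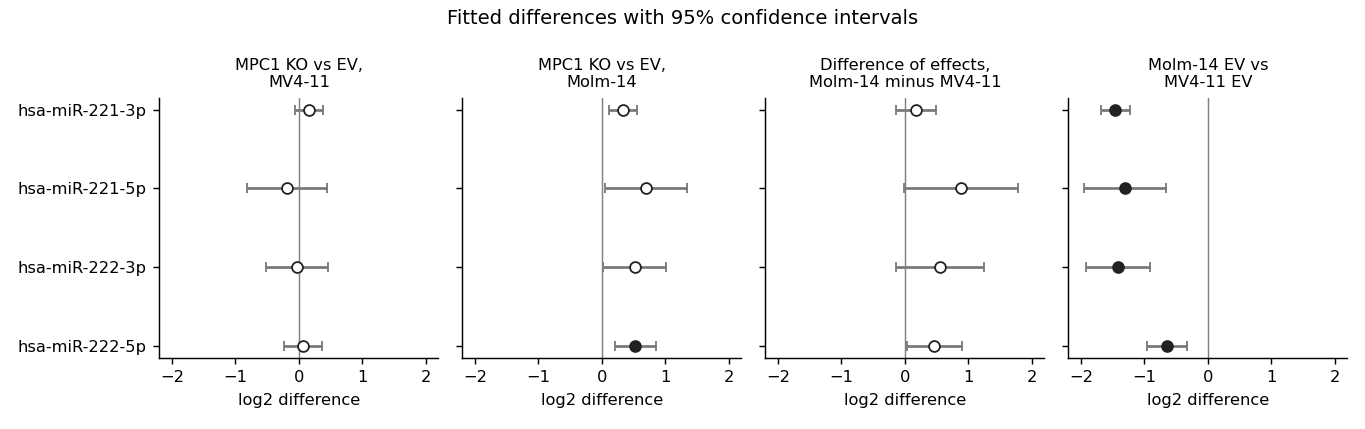
Fitted log2 differences (x axis) of the 4 arms (y axis) with 95% confidence intervals, in 4 panels for the 4 contrasts. Filled points passed the threshold of 0.05 on the adjusted p: hsa-miR-222-5p in Molm-14, and all 4 arms between the EV lines.

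Ordered by group mean, each arm was lowest in Molm-14 EV and second lowest in Molm-14 MPC1 KO. For hsa-miR-221-3p, MV4-11 EV and MV4-11 MPC1 KO followed, and only these upper 2 groups overlapped. hsa-miR-222-3p had the MV4-11 groups in the opposite order, again overlapping with each other and not with Molm-14. For hsa-miR-221-5p the highest Molm-14 MPC1 KO library (849 CPM) passed the lowest MV4-11 MPC1 KO library (833 CPM). hsa-miR-222-5p in Molm-14 MPC1 KO reached the MV4-11 EV range, 31.0 CPM at its highest against 30.6 CPM at the lowest of MV4-11 EV. The guides of Molm-14 MPC1 KO thus stayed below every MV4-11 library, while the 5p arms did not.

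The arms of 1 hairpin were next compared within each library, where the scaling between libraries cancels. Ratios are of counts, and 4 ratios in 4 comparisons gave 16 exact two-sided permutation tests on log2 ratios. There were 10.9 to 23.1 reads of hsa-miR-221-3p for each read of hsa-miR-221-5p (median 16.1), and 156 to 533 reads of hsa-miR-222-3p for each of hsa-miR-222-5p (median 308). The 5p share of miR-221 ran from 4.14% (95% Clopper-Pearson interval 4.04 to 4.25) in MV4-11 MPC1 KO 3 to 8.42% (8.16 to 8.68) in Molm-14 MPC1 KO 3. That of miR-222 ran from 0.187% (0.165 to 0.212) in MV4-11 EV 1 to 0.638% (0.507 to 0.792) in Molm-14 EV 2. These intervals cover counting error only. They were narrower than the range of each group for miR-221. Even so, those of Molm-14 MPC1 KO 1 and Molm-14 MPC1 KO 2 overlapped, as did those of MV4-11 MPC1 KO 2 and MV4-11 MPC1 KO 3. For miR-222 the intervals of several libraries of 1 group overlapped, all 3 of them in Molm-14 MPC1 KO.

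Both arm ratios were lower in Molm-14 than in MV4-11, which is to say that relatively more 5p was read in Molm-14. For miR-222 the ratio was 533, 375 and 310 in MV4-11 EV and 450, 327 and 355 in MV4-11 MPC1 KO, against 305, 156 and 256 in Molm-14 EV and 248, 215 and 239 in Molm-14 MPC1 KO. Every Molm-14 library lay below every MV4-11 library. The log2 difference within genotypes was -0.73 (exact permutation p = 0.005, the smallest the design allows, adjusted p = 0.08 over 16 tests). For miR-221 it was -0.51 (exact permutation p = 0.035, adjusted p = 0.28), and the lines overlapped in the EV libraries. Without Molm-14 EV 2 these differences were -0.59 and -0.61, each with an adjusted p of 0.08. Of the 16 tests, 2 had an unadjusted p under 0.05 and 0 passed after adjustment. The design limits this count: 1 test alone at the smallest p of 0.005 has an adjusted p of 0.08. Permutation tests within a line cannot go below 0.1, so the 0 says little about the ratios.

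The miR-221 arm ratio did not pass a test between MPC1 KO and EV in either line, and the difference between the lines was not tested. It was 13.7, 17.4 and 21.5 in MV4-11 EV and 18.7, 22.1 and 23.1 in MV4-11 MPC1 KO, a log2 difference of 0.30 (exact permutation p = 0.2, adjusted p = 0.533). In Molm-14 it was 14.8, 20.1 and 12.3 in EV and 12.1, 12.1 and 10.9 in MPC1 KO, a log2 difference of -0.40 (exact permutation p = 0.1, the smallest that 3 against 3 libraries can give, adjusted p = 0.32), or -0.20 without Molm-14 EV 2. The miR-222 arm ratio differed by -0.08 in MV4-11 and 0.03 in Molm-14 (exact permutation p = 0.8 and 1, adjusted p = 1 for both). The Molm-14 value turned to -0.25 without Molm-14 EV 2 (adjusted p = 0.32).

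The hairpins were compared with each other in the same way. hsa-miR-221-3p was read 1.23 to 1.89 times for each read of hsa-miR-222-3p, and hsa-miR-221-5p 14.7 to 50.4 times for each of hsa-miR-222-5p. The guides of the 2 hairpins were thus within a factor of 1.89 of each other in every library, while the 5p arms were not. Between Molm-14 and MV4-11, the guide ratio differed by -0.23 on the log2 scale (exact permutation p = 0.095) and the 5p ratio by -0.45 (exact permutation p = 0.085), both with an adjusted p of 0.32. Without Molm-14 EV 2 these differences were -0.32 and -0.31, with adjusted p of 0.08 and 0.48. With MPC1 deletion the guide ratio differed by 0.18 in MV4-11 and -0.21 in Molm-14 (exact permutation p = 0.3 and adjusted p = 0.6 for both), the latter by -0.03 without Molm-14 EV 2. The 5p ratio differed by -0.20 and 0.21 (exact permutation p = 0.7 and 0.6, adjusted p = 1 for both), and without Molm-14 EV 2 the Molm-14 value turned to -0.08.

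**Figure D4:**
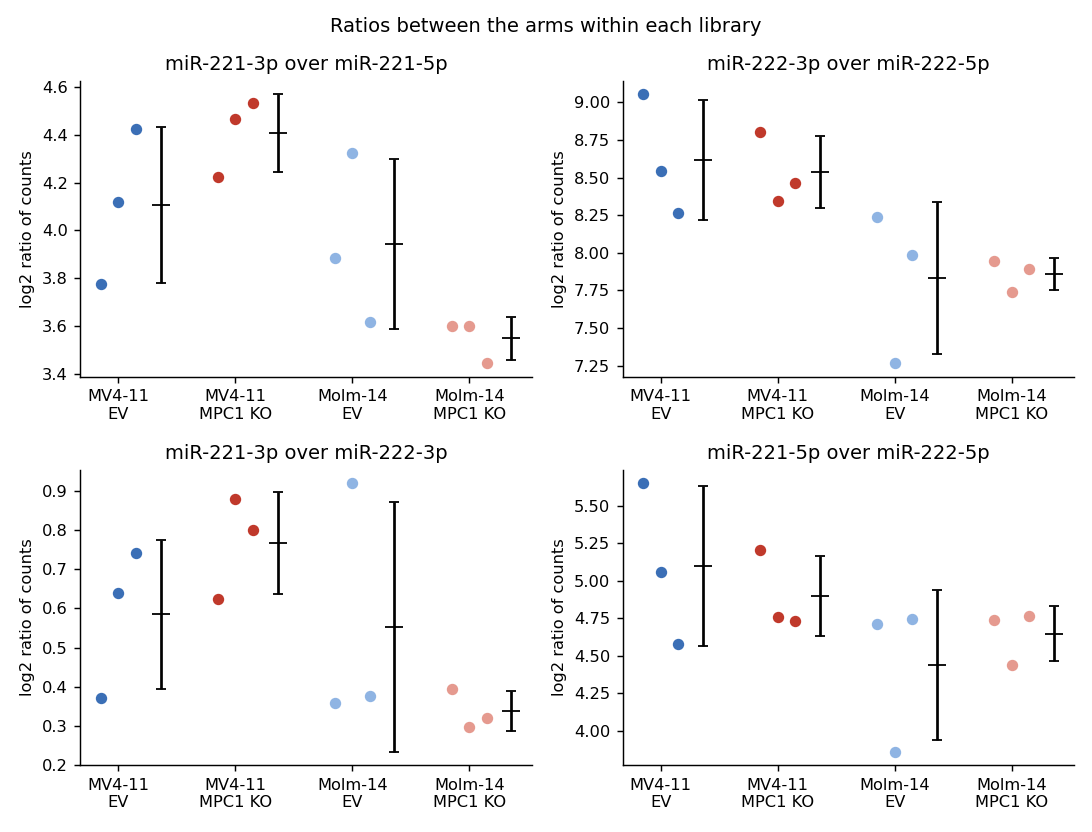
Log2 ratio of counts between arms (y axis, not from 0) in each library by group (x axis), with the group mean and SD (n = 3) beside the points. The miR-222 arm ratio of every Molm-14 library lies below that of every MV4-11 library.

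Libraries of 1 group differed more in hsa-miR-221-5p and hsa-miR-222-3p than is usual at their level. The within-group SD of log2 CPM was 0.36 for hsa-miR-221-5p, larger than that of 96% of the 100 miRNAs nearest in abundance, and 0.31 for hsa-miR-222-3p, larger than that of 97.1% of 69. hsa-miR-221-3p was ordinary, at 0.14 (57.8% of 64), and hsa-miR-222-5p, at 0.12, was below most of its neighbours (4% of 100).

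The deviations from the group mean had the same sign in 3 of the arms in several libraries. In MV4-11 EV 1, the deepest library, hsa-miR-221-3p lay 0.16, hsa-miR-222-3p 0.37 and hsa-miR-221-5p 0.49 above the group mean on the log2 scale. In Molm-14 EV 2, the shallowest, they lay at -0.11, -0.48 and -0.49, and in MV4-11 EV 3 at -0.18, -0.33 and -0.49. hsa-miR-222-5p did not share this, at -0.06, 0.08 and 0.02 in those libraries. In the KO groups the deepest libraries lay below the group mean in the same 3 arms. MV4-11 MPC1 KO 2 was at -0.20, -0.31 and -0.26, and Molm-14 MPC1 KO 2 at -0.11, -0.07 and -0.16. Molm-14 MPC1 KO 3, the shallowest of its group, was at 0.09, 0.11 and 0.19. Over the 12 deviations Pearson's r was 0.95 between hsa-miR-221-5p and hsa-miR-222-3p and -0.15 between hsa-miR-222-5p and either, as a description of libraries that share groups and depth. This was not particular to the locus: for hsa-miR-221-5p, hsa-miR-4521 (0.986), hsa-miR-181b-5p (0.974) and hsa-miR-7-5p (0.970) stood above hsa-miR-222-3p, which ranked 7, and hsa-miR-221-3p ranked 34. The part of depth in these deviations was not tested.

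**Figure D5:**
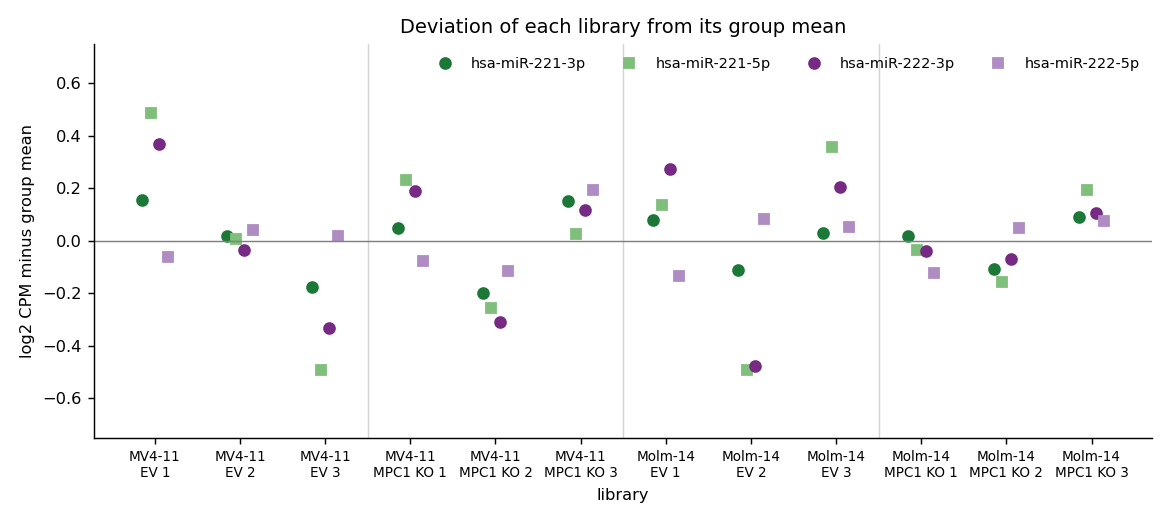
Log2 CPM of each arm minus its group mean (y axis) in each of the 12 libraries (x axis). hsa-miR-221-5p and hsa-miR-222-3p lie near -0.49 and -0.48 in Molm-14 EV 2, where hsa-miR-222-5p lies at 0.08.

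The miRNAs with the pattern most like each arm were named by the highest Pearson's r of log2 CPM over the 12 libraries, which the gap between the cell lines dominates. hsa-miR-221-3p was followed by hsa-miR-200c-3p (0.993), hsa-miR-339-5p (0.992) and hsa-miR-152-3p (0.984), and the other guide stood at 0.95. For hsa-miR-222-3p they were hsa-miR-210-3p (0.973), hsa-miR-330-3p (0.968) and hsa-miR-4518 (0.961). hsa-miR-221-5p was most like hsa-miR-222-3p (0.960), ahead of hsa-miR-4518 (0.958), hsa-miR-6774-5p (0.923) and hsa-miR-330-3p (0.907). hsa-miR-222-5p had weaker likenesses, to hsa-miR-6501-5p (0.880), hsa-miR-874-3p (0.867) and hsa-miR-340-5p (0.863). The arm of the other hairpin was thus nearer to hsa-miR-221-5p than its own guide was (0.848).

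Lists of miRNAs tied to the known biology of the locus were counted beside it. The lists were chosen with earlier results of these data known, so their counts describe them and do not test them. Of 8 other miRNAs known to target KIT or CDKN1B, 6 were tested. In MV4-11 none passed in edgeR, DESeq2 or limma-voom, and 1 had an unadjusted p under 0.05. The median log2 fold change was -0.09, against 0.00 over all tested (-0.02 against 0.06 without Molm-14 EV 2). In Molm-14 1 fell, where 6.83% of all miRNAs were called in either direction: hsa-miR-196a-5p, from the HOX clusters, went from 13.995 ± 2.04 to 2.63 ± 0.222 CPM (SD, n = 3; log2 fold change -2.40, SE 0.32, edgeR adjusted p = 1.64e-05). With Molm-14 EV 2 left out it was -2.39 (adjusted p = 6.43e-05). The median of this list in Molm-14 was -0.03, against -0.01 over all tested (0.05 against 0.02 without Molm-14 EV 2).

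All 8 miRNAs of the list known to be induced by NF-kB or AP-1 were tested. In Molm-14 both arms of miR-155, an activator of inflammatory responses, rose. On the log2 scale the 5p arm changed by 0.52 (SE 0.12, edgeR adjusted p = 0.00732), and the 3p arm by 0.87 (SE 0.19, edgeR adjusted p = 0.00447). hsa-miR-146a-5p, a brake on NF-kB signaling, fell by 0.74 (SE 0.10, edgeR adjusted p = 1.89e-05), and the other 5 did not pass, so 3 of 8 were called against 6.83% of all miRNAs. As this list was also chosen with earlier results known, that count is not a test of it. Leaving out Molm-14 EV 2, the 3 log2 fold changes were 0.54, 0.84 and -0.76, with adjusted p of 0.0237, 0.0141 and 2.97e-05. In MV4-11 1 of 8 passed, against 3.03% of all miRNAs: hsa-miR-21-3p fell by 0.44 (SE 0.12, edgeR adjusted p = 0.0389), a call lost without Molm-14 EV 2 (log2 fold change -0.37, adjusted p = 0.0544). All 8 had a log2 fold change below 0 in MV4-11, as did 50.5% of all tested, 5 had an unadjusted p under 0.05, and DESeq2 called 3. The list holds both arms of some miRNAs, so its members are not all separate, and hsa-miR-155-5p was only at -0.04 (SE 0.12). The signs were not counted without Molm-14 EV 2. The list's median was -0.14 in Molm-14 and -0.37 in MV4-11, against -0.01 and 0.00 over all tested. Without Molm-14 EV 2 it was -0.20 and -0.30, against 0.02 and 0.06.

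Of 77 other miRNAs encoded only on chromosome X, 48 were tested. In Molm-14 1 fell with MPC1 deletion, hsa-miR-652-3p (log2 fold change -0.38, SE 0.10, edgeR adjusted p = 0.0192), and in MV4-11 1 rose, hsa-miR-503-5p (0.40, SE 0.09, edgeR adjusted p = 0.00949), where 6.83% and 3.03% of all miRNAs were called. The list's median with MPC1 deletion was 0.03 in Molm-14 and -0.12 in MV4-11, against -0.01 and -0.004 over all tested. In MV4-11 70.8% of the 48 were below 0, against 50.5% of all tested, and in Molm-14 39.6% against 51.9%. An unadjusted edgeR p under 0.05 was found for 13 of the 48 in MV4-11 and 6 in Molm-14. Without Molm-14 EV 2 the medians were 0.03 in Molm-14 and -0.05 in MV4-11, against 0.02 and 0.06 over all tested. The call of hsa-miR-652-3p was lost without Molm-14 EV 2 (-0.25, edgeR adjusted p = 0.182). In that fit 5 of the 48 were called higher in MV4-11, where 32 of all 679 miRNAs tested were. The 5 were hsa-miR-503-5p, hsa-miR-424-5p, hsa-miR-424-3p, hsa-miR-450b-5p and hsa-miR-361-5p. All but hsa-miR-361-5p belong to 1 cluster, that of miR-424, miR-503 and miR-450, so the 5 are not all separate. Over all miRNAs, that fit called 32 higher and 6 lower in MV4-11, against 13 and 7 with every library kept. The median of all tested moved with it from -0.004 to 0.06. Between the EV lines 13 of the 48 were higher and 18 lower in Molm-14, where 33.5% and 28.4% of all miRNAs were called. The list's median was -0.24 against 0.06 over all tested. Without Molm-14 EV 2, 14 were higher and 16 lower, where 219 and 172 of 679 miRNAs were called. The median was then -0.17 against 0.05 over all tested. The 4 arms of the locus, at -1.46 to -0.64, all lay below the list's median of -0.24.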

How the data were processed

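Small RNA libraries (NEBNext Multiplex Small RNA kit) were sequenced by the authors, who deposited raw counts of reads per mature miRNA without normalization. The submitters' processing notes name STAR 2.5.2, featureCounts 1.5.1 and GRCh38. How reads matching several miRNAs were treated is not given in the sources used here. Groups came from the sample labels. Counts were fitted with edgeR 4.0.16 in R 4.3.3 (filterByExpr, minimum count 10, TMM, robust quasi-likelihood, all 12 libraries as 4 group means), with Benjamini-Hochberg adjustment over 659 miRNAs and a threshold of 0.05. The filter kept at least 99.97% of each library's counts. Log2 ratios had 1 added to each count. The fit was also run on simulated counts in which only Molm-14 MPC1 KO differed from the other groups. In the real data the lines differed widely, and no result above rests on that run. Alternatives were other scalings and filters, DESeq2 1.42.0, limma-voom (limma 3.58.1), a replicate block, single-line fits and leaving out each library. The members and lists were chosen with earlier results of these data known. Named miRNAs were the 4 arms, for each arm the 3 miRNAs of highest correlation and the 2 nearest in mean CPM, miRNAs sharing a seed, and list members past the threshold in an MPC1 KO comparison. hsa-miR-223-3p, hsa-miR-142-3p the miRNAs of like deviation and 4 chromosome X miRNAs called without Molm-14 EV 2 were named outside this rule, after values were seen.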

Additional observations from a re-analysis of the deposited data

How the results depend on the processing

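All 4 arms kept their direction and their call between the EV lines, and their direction in Molm-14 MPC1 KO, under every alternative run. The call of hsa-miR-221-3p in Molm-14 was gained with RLE factors (log2 fold change 0.34), upper-quartile factors (0.41), total counts alone (0.37), no filter (0.35), a mean of at least 100 counts (0.33), DESeq2 (0.36) and single-line fits (0.35), and that of hsa-miR-222-3p with DESeq2 (0.54). Leaving out 1 library gave 0.30 to 0.40 for hsa-miR-221-3p, called in 5 of 12 fits, and 0.47 to 0.61 for hsa-miR-222-5p, called in 8 of 12. In MV4-11, where no arm was called, hsa-miR-222-3p changed sign with total counts alone (0.042) and hsa-miR-222-5p with upper-quartile factors (-0.046), and leaving out 1 library gave -0.41 to 0.080 for hsa-miR-221-5p, -0.20 to 0.16 for hsa-miR-222-3p and -0.055 to 0.14 for hsa-miR-222-5p.

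Replicate numbers did not pair the libraries (correlations of same-numbered deviations -0.11 to 0.10), and with a replicate block hsa-miR-221-3p in Molm-14 gained its call (0.34, adjusted p = 0.0496), no other arm changed its call, and 22 miRNAs were called in MV4-11 and 49 in Molm-14 (20 and 45 without it).

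The number of miRNAs called in MV4-11 was 20, 31 with DESeq2 and 12 (without MV4-11 MPC1 KO 1) to 38 (without Molm-14 EV 2; 34 without Molm-14 EV 3) with 1 library left out. For the difference of effects it was 44, and 22 to 53 with 1 library left out, and between the EV lines 408, or 212 at a mean of at least 100 counts, where 279 miRNAs were tested. Upper-quartile factors moved the median log2 fold change of all miRNAs to -0.12 in MV4-11, 0.18 for the difference and -0.12 between the EV lines. The split of higher and lower calls went with them from 13 and 7 to 10 and 15 in MV4-11 (20 and 6 with total counts alone), from 18 and 27 to 30 and 23 in Molm-14, and from 16 and 28 to 31 and 13 for the difference.

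With 3 libraries against 3, no ratio test within a line can reach 0.05, so their not passing says nothing about stability. Over both lines, MPC1 KO against EV within lines gave mean log2 differences of -0.047 (miR-221 arms), -0.026 (miR-222 arms), -0.016 (guides) and 0.005 (5p arms). Their exact permutation p ran from 0.81 to 0.975. With medians, the log2 differences within lines were 0.030 (miR-221 arms), 0.051 (guides) and -0.14 (5p arms), and that of the miR-222 arms in Molm-14 was -0.093. Leaving out 1 library gave, within lines, -0.13 to 0.049 (miR-221 arms), -0.17 to 0.082 (miR-222 arms), -0.069 to 0.076 (guides) and -0.14 to 0.14 (5p arms). For the miR-222 arms it gave -0.26 to 0.13 in MV4-11 and -0.25 to 0.23 in Molm-14, and for the 5p arms -0.46 to 0.076 and -0.080 to 0.36. The cause of these changes was not tested. hsa-miR-222-5p had 81 to 251 counts per library, the fewest of the 4 arms.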
